A study of Arabidopsis thaliana with 6 samples.

Results

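The transcripts described here are those most abundant in bundle sheath cells (BSCs), the layer that wraps the leaf veins. They were chosen by their measured values: of 22746 Arabidopsis probe sets on the ATH1 array, 559 (2.46%) had a log2 value of at least 5 on 2 or more of the 3 BSC arrays. The log2 value is the normalized raw expression level, log2(NREL), of a probe set, the group of short probes that reads 1 transcript or a few similar ones. Because the BSC values chose these members, their levels are given as a description and no test was run on them. The level of a probe set also depends on how well its probes bind, so ranks between probe sets order signals and not exact numbers of transcripts.

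All plants were untreated Arabidopsis thaliana of the Landsberg (Ler) ecotype that carried SCR:GFP, green fluorescent protein driven by the SCARECROW promoter. BSC protoplasts, 25 to 30 µm wide, were picked by hand for their fluorescence, and mesophyll cell (MC) protoplasts, 40 to 45 µm wide, for the lack of it. RNA from a pool of 20 protoplasts of 1 type was amplified in 3 rounds for each array. There were 3 BSC arrays, numbered 3, 5 and 7 in their labels, and 3 MC arrays, numbered 4, 6 and 8. Values below are given in these orders. The BSCs are defined by the activity of 1 promoter, and all cells had passed through enzymatic removal of the cell wall. The labels call the arrays biological replicates and do not say whether the pools came from separate plants. In such pools, fewer cells with a transcript and less transcript per cell cannot be told apart.

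Bundle sheath cells lie between the xylem and the mesophyll, and water and solutes that leave the veins pass through or around them. In Arabidopsis, a plant with C3 photosynthesis, they hold chloroplasts and are known for sulfur assimilation and for the synthesis and storage of glucosinolates, the defence compounds of the cabbage family. Chloroplasts have a genome of their own, which encodes core subunits of both photosystems, the cytochrome b6f complex, ATP synthase, the NDH complex of cyclic electron flow, the large subunit of Rubisco and part of the plastid's own gene expression machinery. Their other proteins are encoded in the nucleus.

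Of the 559 members, 237 could be named as 1 gene, through the array annotation (228) or the dataset that lists the study's 90 differential probe sets (9). The remaining 322 carry no gene name here: 303 had no annotation in the tables used, 17 matched several genes and 2 could not be matched. Names were thus held by 42.4% of the members, compared with 59.3% of all probe sets. Each count by function therefore covers only the named members. None of the listed bundle sheath markers (SCR and SULTR2;2 among them) had a named probe set, so the cell type label could not be checked against its own markers. Of 6 named markers of other leaf tissues, none reached 5 on any array. Only 2.46% of all probe sets were members, so this count does not check which cells were picked. The guard cell lineage genes SPCH, MUTE and FMA were between 1.81 and 2.55 in BSCs and between 1.82 and 2.51 in MCs. The phloem gene OPS was at 1.53, 1.50 and 1.62 in BSCs, against 1.79, 1.43 and 1.48 in MCs, and SWEET11, a sucrose exporter of the phloem parenchyma, was at 2.43, 3.60 and 3.80 in BSCs, against 3.43, 3.55 and 2.78 in MCs. SWEET11 ranked 5198, 1452 and 555 in BSCs, and its value on array 7 was above the members' median there. The epidermal marker LCR was at 2.38, 2.44 and 2.83 in BSCs, against 2.54, 2.32 and 2.68 in MCs, and no xylem marker was named.

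The 3 BSC arrays contributed very unequally to the abundant set. At 5 or above there were 1147 probe sets on array 3, 613 on array 5 and 78 on array 7, while the MC arrays had 406, 1157 and 425. Arrays 3 and 5 alone carried 497 of the members (88.9%), 45 (8.1%) reached the level on all 3 arrays, 14 on arrays 5 and 7 and 3 on arrays 3 and 7. A further 602 probe sets at 5 or above on array 3 were not members, compared with 57 on array 5 and 16 on array 7. Over all members the median log2 value was 7.21, 6.25 and 3.25 in BSCs, against 5.28, 7.13 and 5.45 in MCs. Array 7 had the lowest of the 3 BSC values for 530 of the 559 members, and 53 members (9.5%) lay below the median of that whole array, 2.06. The SD over the 3 BSC arrays had a median of 2.19 (range 0.05 to 4.87) among the members, and the SD over the 3 MC arrays had a median of 1.02. The spike-in controls, bacterial and phage transcripts added to each sample in fixed amounts, ran the other way: all 9 of their probe sets examined were highest on array 7. Their median was 7.52, 9.29 and 10.80 in BSCs, against 9.26, 7.29 and 8.99 in MCs. The 3-prime ubiquitin control probe set was at 8.78, 7.73 and 4.55 in BSCs, against 7.09, 8.87 and 7.6 in MCs. The 5-prime one was at 4.76, 3.94 and 3.65 in BSCs, against 3.46, 4.38 and 3.75 in MCs. Their difference was 4.03, 3.79 and 0.90 in BSCs, against 3.63, 4.5 and 3.85 in MCs. The small difference on array 7 thus came with the lowest 3-prime value of all arrays. The part of these differences between arrays in the levels of the members was not tested.

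**Figure D1:**
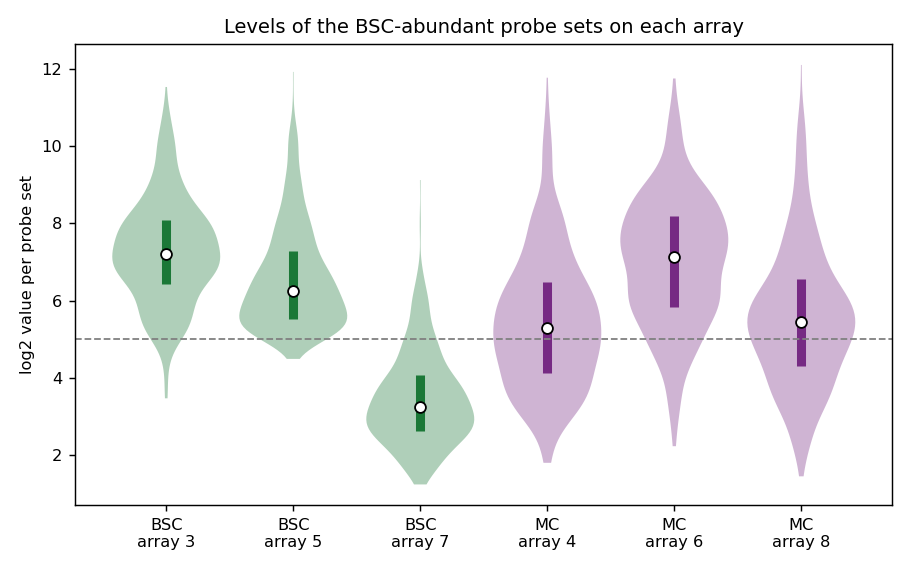
Log2 value per probe set (vertical axis) of the 559 probe sets abundant in BSCs on the 3 BSC arrays (green) and the 3 MC arrays (purple). The shape is the distribution over probe sets, the white point the median, the thick bar the middle 50%, and the dashed line the level of 5. The median on BSC array 7 was 3.25, against 7.21 and 6.25 on BSC arrays 3 and 5.

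Among the members, ranks were steadier between arrays 3 and 5 than between either of them and array 7. Over the members, Spearman's rho was 0.74 for arrays 3 and 5, -0.01 for arrays 3 and 7 and 0.02 for arrays 5 and 7. Over all 22746 probe sets the same pairs had a rho of 0.76, 0.59 and 0.73. Within the 45 members at the level on all 3 arrays it was 0.91, 0.21 and 0.38. These are correlations across probe sets, which are not independent replicates, and choosing members by their high values narrows the range over which they are computed. The median rank of the members (1 is the highest of 22746) was 308 on array 3, 290 on array 5 and 1332 on array 7. Among the 559 highest probe sets of each array were 425 members (76%) on array 3, 515 (92.1%) on array 5 and 182 (32.6%) on array 7. Since 497 members were chosen on arrays 3 and 5 alone, the rule itself favours these arrays in the median ranks and in these shares. The range of a member's rank over the 3 arrays had a median of 1240 places, and was at most 100 places for 36 members and at most 500 for 160. In all, 14 members, 10 of them named, were within the 100 highest probe sets of every BSC array.

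**Figure D2:**
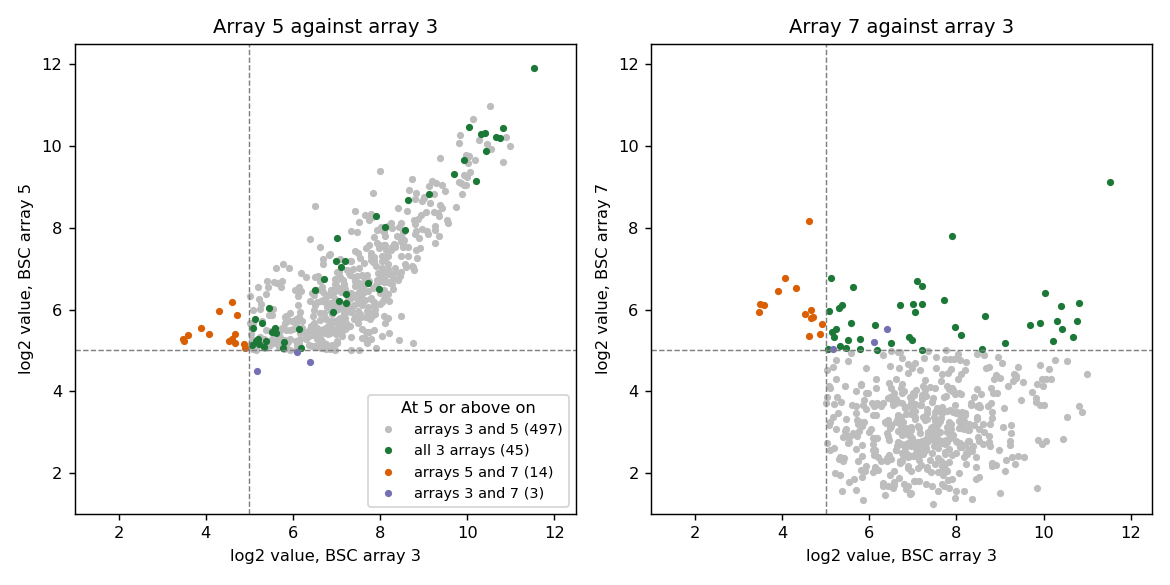
Log2 values of the 559 members on BSC array 3 (horizontal axes) against BSC array 5 (left, vertical axis) and BSC array 7 (right, vertical axis), coloured by the arrays on which a member reached 5 (dashed lines). The left cloud follows a line (rho 0.74). On the right, rho over all 559 members was -0.01, and the 497 members of arrays 3 and 5 lie below 5 on array 7 by definition.

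Among the named probe sets, chloroplast-encoded genes led the ranking in BSCs: they were 9 of the 15 named members with the smallest median rank. psbA, which encodes the D1 protein of the photosystem II reaction centre, held rank 1 on each BSC array, at 11.53, 11.92 and 9.12 in BSCs, against 11.77, 11.75 and 12.10 in MCs. Its value on array 7 was the lowest of the 6. psbC and psbD encode the antenna protein CP43 and the D2 protein of the same photosystem. psbC was at 10.03, 10.46 and 6.41 in BSCs, against 9.22, 10.34 and 10.31 in MCs, and psbD was at 10.32, 10.30 and 5.73 in BSCs, against 9.86, 10.99 and 10.48 in MCs. Both stayed within the 32 highest probe sets of every BSC array even though they were over 3 lower on array 7. psaA, for a core protein of photosystem I, ranked 12, 6 and 20 in BSCs, with values of 10.41, 10.32 and 6.09 in BSCs, against 10.19, 10.58 and 10.97 in MCs. atpA, for the alpha subunit of the ATP synthase, ranked 34, 27 and 38, the narrowest range of any named member apart from psbA. It was at 9.70, 9.31 and 5.61 in BSCs, against 9.56, 9.55 and 9.97 in MCs. Of the NDH subunits, ndhJ was at 10.67, 10.23 and 5.32 in BSCs, against 10.09, 10.60 and 10.61 in MCs, and ndhK at 9.11, 8.84 and 5.18 in BSCs, against 8.35, 9.49 and 8.69 in MCs. For each of these 7 genes, arrays 3 and 5 lay close together and BSC array 7 was below all 5 other arrays.

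Other chloroplast transcripts were as high on arrays 3 and 5 but lost their rank on array 7. psbB, for the antenna protein CP47, ranked 9, 2 and 125, at 10.53, 10.97 and 4.74 in BSCs, against 9.68, 10.62 and 10.34 in MCs. atpH, for the ring subunit of the ATP synthase, was at 10.12, 10.66 and 4.55 in BSCs, against 10.83, 10.51 and 10.97 in MCs. psaB, the partner of psaA, ranked 32, 13 and 525, at 9.82, 10.08 and 3.84 in BSCs, against 8.66, 10.18 and 9.91 in MCs. rbcL, for the large subunit of Rubisco, was at 8.67, 8.93 and 4.58 in BSCs, against 8.40, 8.98 and 8.87 in MCs. Thus psaA and psaB, partners in the same reaction centre, were close in rank on arrays 3 and 5 and far apart on array 7. The least steady of the chloroplast members was petL, a small subunit of the cytochrome b6f complex, which ranked 508, 514 and 17534. It was at 6.56, 5.28 and 1.78 in BSCs, against 1.82, 5.39 and 3.23 in MCs, so each cell type had 1 array with a value below 2. The opposite held for psbE, for a subunit of cytochrome b559, and for rps19, for a ribosomal protein. psbE was at 7.20, 7.20 and 6.57 in BSCs, against 6.81, 7.40 and 7.16 in MCs, and ranked 315, 152 and 7. rps19 was at 7.71, 6.65 and 6.24 in BSCs, against 8.32, 8.99 and 7.82 in MCs, and ranked 209, 222 and 12.

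The neighbouring ATP synthase genes atpE and atpB were both at their lowest of the 6 arrays on BSC array 7. atpE was at 8.81, 8.09 and 2.24 in BSCs, against 7.74, 9.23 and 8.08 in MCs, and atpB was at 7.79, 7.30 and 3.12 in BSCs, against 3.30, 8.34 and 5.41 in MCs. matK was at 7.75, 7.58 and 2.23 in BSCs, against 6.27, 8.47 and 8.01 in MCs. clpP was at 7.54, 7.25 and 4.85 in BSCs, against 6.40, 7.84 and 7.09 in MCs, and kept ranks of 242, 147 and 101. rps4, a ribosomal protein gene, was at 8.11, 8.03 and 5.38 in BSCs, against 7.46, 8.46 and 8.05 in MCs, with ranks of 138, 82 and 50. Of the cytochrome b6f genes, petB was at 7.87, 7.78 and 3.19 in BSCs, against 6.86, 8.52 and 8.16 in MCs, and petA, for cytochrome f, was at 6.72, 5.53 and 4.08 in BSCs, against 5.77, 6.72 and 5.84 in MCs. The lower petA signal was the steadier of the pair, with ranks of 457, 442 and 353, compared with 178, 102 and 1476 for petB.

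Of 69 named chloroplast-encoded probe sets, 36 (52.17%) were members, compared with 201 of 13413 named nuclear ones (1.50%). By complex, members were 10 of 15 photosystem II genes, 3 of 5 photosystem I genes, 5 of 6 ATP synthase genes, 4 of 6 cytochrome b6f genes and 5 of 10 NDH genes. Only 2 of 15 ribosomal protein genes (rps4 and rps19) and 1 of 4 RNA polymerase genes (rpoA) were. The 6 other members were rbcL, accD (fatty acid synthesis), clpP (a protease subunit), matK (an intron maturase), cemA and ycf4 (photosystem I assembly). The median of the photosystem II genes was 7.20, 7.18 and 3.76 in BSCs, against 6.81, 7.31 and 7.16 in MCs, and that of the ribosomal protein genes was 3.93, 3.26 and 2.67 in BSCs, against 3.28, 5.0 and 3.54 in MCs. Of the 36 chloroplast members, 10 reached 5 on array 7, compared with 32 of 201 named nuclear members. The median rank range was 249 places for the chloroplast members and 1024 for the nuclear ones. A narrow range of ranks is not a narrow range of levels. The SD over the BSC arrays was 1.52 for psbA and 2.25 for atpA, compared with a median of 2.19 over all members. Across the 69 chloroplast genes, Spearman's rho was 0.97 for arrays 3 and 5, 0.71 for arrays 3 and 7 and 0.73 for arrays 5 and 7.

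Members lay side by side on the chloroplast genome. In gene order, counting only genes with a named probe set, the longest unbroken run held 12 members, from rps4 through ndhJ, ndhK, ndhC, atpE, atpB, rbcL, accD, psaI, ycf4 and cemA to petA. Further runs were psbM, psbD, psbC and psbZ, then psbF, psbE, petL and petG, and atpA, atpF and atpH. In contrast, the stretch from atpI through rps2, rpoC2, rpoC1 and rpoB to petN held no member, and neither did the ribosomal genes from rpl36 to rpl22. Some neighbours of members stayed low on every BSC array: atpI, next to atpH, was at 2.67, 2.89 and 2.88 in BSCs, against 2.95, 3.10 and 2.84 in MCs, and psbL, next to psbF, was at 2.30, 2.05 and 2.24 in BSCs, against 2.26, 2.20 and 2.20 in MCs. Chloroplast genes are commonly transcribed together in operons, so that neighbours can share 1 precursor RNA. How far probe binding sets such differences between neighbours was not tested.

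**Figure D3:**
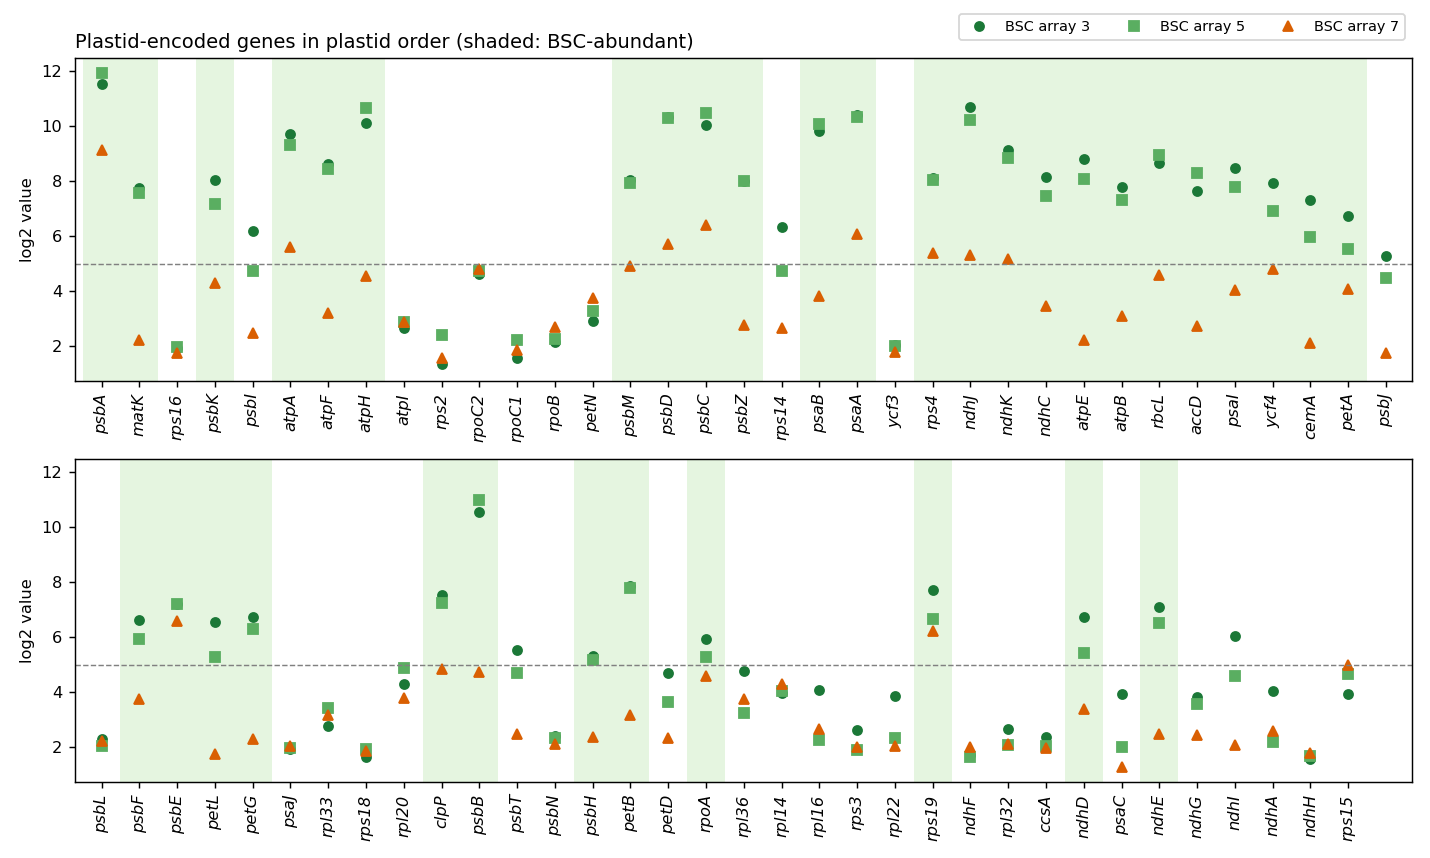
Log2 value (vertical axes) of each named chloroplast-encoded gene on the 3 BSC arrays, with the genes in their order on the chloroplast genome from left to right, top row first. Shaded genes are the 36 members, and the dashed line is the level of 5. The longest shaded run holds 12 genes, and array 7 lies below arrays 3 and 5 in nearly all shaded genes.

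The highest named nuclear transcripts of BSCs were AT5G61820, HPR, AT3G05500, AT1G19020, AT3G44190 and BIK1. HPR encodes hydroxypyruvate reductase, a peroxisomal enzyme of photorespiration. It was at 10.45, 10.04 and 2.84 in BSCs, against 8.40, 9.82 and 6.59 in MCs, and ranked 10, 14 and 2681, so that it was among the 14 highest on arrays 3 and 5 only. LrgB, a carrier of photorespiratory metabolites in the chloroplast envelope, was at 6.11, 6.12 and 2.43 in BSCs, against 3.06, 6.71 and 3.23 in MCs. AT5G61820 (ranks 3, 10 and 895) was at 10.89, 10.23 and 3.50 in BSCs, against 8.35, 10.27 and 9.40 in MCs. AT3G05500 was at 10.06, 9.36 and 2.77 in BSCs, against 6.99, 8.63 and 5.74 in MCs. In contrast, AT1G19020 (ranks 15, 32 and 61) kept its place on all arrays, at 10.21, 9.14 and 5.23 in BSCs, against 10.74, 10.03 and 10.34 in MCs. AT3G04640 was level over both cell types, at 7.90, 8.30 and 7.81 in BSCs, against 8.06, 8.06 and 8.03 in MCs, and this placed it at rank 173, 66 and 3. No role is annotated for these 4 genes in the tables used. AT3G44190, AT5G35735 and AT4G29780, also without a role there, were the next highest along with BIK1. Among the 20 members with the smallest median rank, 11 were unnamed and 7 were named chloroplast genes. The 2 others were AT5G61820 and HPR.

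Besides the chloroplast genes above, AER, OPCL1, AT1G19020, AT3G04640 and AOX1A, further nuclear members reached 5 on all 3 BSC arrays. Of these, the 5 with the smallest worst rank over the BSC arrays were AT3G62260, AT5G48540, AT1G21580, AT3G50685 and AT4G19880, none with a role in the tables used. AT5G48540 was at 7.06, 6.21 and 5.93 in BSCs, against 6.84, 7.23 and 6.31 in MCs, and AT1G21580 was at 6.99, 7.19 and 5.26 in BSCs, against 7.69, 6.97 and 6.95 in MCs. AT3G62260 was at 7.97, 6.51 and 5.57 in BSCs, against 5.33, 7.61 and 6.02 in MCs. In these 3 genes the BSC and MC values overlapped. AT3G50685 was at 6.51, 6.48 and 5.18 in BSCs, against 6.83, 8.43 and 5.74 in MCs, and AT4G19880 at 6.18, 5.06 and 5.02 in BSCs, against 4.15, 4.90 and 5.26 in MCs. Of the 45 members on all 3 BSC arrays, 43 reached 5 on 2 or more MC arrays and 37 on all 3. The smallest SD of a named member was that of AT5G40490, with 5.06, 5.14 and 5.04 in BSCs.

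Of the named nuclear genes in the lists of the photosynthetic apparatus, 3 of 4 photosystem I genes (LHCA3, PSAH-1 and PSAE-1), 5 of 11 photosystem II genes and 0 of 3 electron transport genes were members, compared with 1.76% of all named probe sets. With the chloroplast-encoded genes these were 6 of 9, 15 of 26 and 4 of 9. All 8 nuclear members had their lowest value of the 6 arrays on BSC array 7, as did 16 of the 18 nuclear genes of these lists. The exceptions, LPA19 (an assembly factor of photosystem II) and ATPC2 (a subunit of the ATP synthase), were low throughout: LPA19 was at 1.73, 1.80 and 1.87 in BSCs, against 1.52, 1.78 and 1.63 in MCs, and ATPC2 at 1.51, 1.55 and 1.75 in BSCs, against 1.52, 1.43 and 1.47 in MCs. Of the members, LHCB4.1, a minor antenna protein of photosystem II, was the highest on arrays 3 and 5, at 8.12, 7.79 and 3.40 in BSCs, against 8.18, 9.61 and 7.20 in MCs. Its paralogue LHCB4.2 was at 5.47, 5.12 and 3.31 in BSCs, against 5.84, 7.69 and 4.23 in MCs. NPQ4, the PsbS protein that triggers dissipation of excess light, was at 7.91, 7.07 and 4.07 in BSCs, against 8.21, 9.91 and 7.74 in MCs. PSBW, a small subunit of photosystem II, was at 7.51, 6.42 and 2.92 in BSCs, against 7.39, 8.22 and 7.15 in MCs, and PSBQA, of the oxygen-evolving complex, at 6.43, 6.41 and 3.30 in BSCs, against 7.21, 8.69 and 6.70 in MCs. For PSBQA all BSC values lay below all MC values. On the photosystem I side, LHCA3 was at 7.16, 6.58 and 3.67 in BSCs, against 7.46, 8.99 and 6.6 in MCs. PSAH-1 was at 7.76, 5.90 and 2.80 in BSCs, against 8.28, 9.06 and 7.36 in MCs, and PSAE-1 at 6.42, 5.47 and 2.91 in BSCs, against 6.56, 7.15 and 5.28 in MCs. Among these 8 genes the highest BSC value stayed below the highest MC value.

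Named genes of carbon fixation and chlorophyll synthesis were among the members, in lists too short to compare their shares. In the Calvin cycle list 2 of 3 named genes were members, compared with 1.76% of all named probe sets. RCA, Rubisco activase, was at 8.34, 7.57 and 3.66 in BSCs, against 6.69, 8.98 and 6.15 in MCs. SBPASE, sedoheptulose bisphosphatase of the Calvin cycle, was at 5.20, 6.54 and 2.62 in BSCs, against 6.06, 8.22 and 5.65 in MCs. The third named Calvin cycle gene, PRK, stayed outside the set with 6.17, 4.42 and 2.43 in BSCs, against 5.71, 7.82 and 5.68 in MCs. Of 11 named genes of chlorophyll and tetrapyrrole synthesis 1 (9.1%) was a member, GSA1, which makes the precursor aminolevulinate. Among the BSC arrays, CHLM and HEMB1 of that list reached 5 on array 3 only, at 6.39 and 5.24. GSA1 was at 7.76, 8.30 and 5.0 in BSCs, against 5.63, 6.04 and 4.82 in MCs, and ranked 199, 67 and 79. Arrays 3 and 5 were above every MC array for GSA1, and array 7 lay within the MC range. CcdA, which carries reducing power across the thylakoid membrane, was at 5.20, 5.25 and 3.68 in BSCs, against 3.91, 5.92 and 4.71 in MCs.

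A few genes of glucosinolate and sulfur metabolism reached the level of 5 on arrays 3 and 5 of BSCs. GTR1, a glucosinolate importer, was at 8.53, 7.71 and 3.08 in BSCs, against 6.54, 9.18 and 7.86 in MCs, so both cell types had it high. AOP3, an enzyme that modifies glucosinolate side chains and is known to be active in Landsberg plants, was at 8.60, 7.04 and 2.70 in BSCs, against 3.74, 4.24 and 2.86 in MCs. BCAT4, the aminotransferase that starts the elongation of methionine for glucosinolates, was at 5.53, 5.23 and 1.79 in BSCs, against 2.08, 2.65 and 2.24 in MCs. For both AOP3 and BCAT4, arrays 3 and 5 were above every MC array and array 7 was below every MC array. SIR, sulfite reductase of sulfur assimilation, was at 5.84, 5.78 and 2.42 in BSCs, against 2.84, 5.03 and 2.69 in MCs, the same order. In the lists, 2 of 4 named glucosinolate genes (GTR1 and BCAT4, AOP3 not being listed) and 1 of 5 named sulfur assimilation genes were members. The transporter GTR2, at 1.57, 1.75 and 1.59 in BSCs, against 1.69, 1.51 and 1.54 in MCs, and the glucosyltransferase UGT74B1, at 2.99, 2.30 and 1.93 in BSCs, against 1.82, 2.38 and 1.93 in MCs, stayed low. Of the sulfur genes APS3, an ATP sulfurylase, came nearest to the level, with 3.54, 4.82 and 2.90 in BSCs, against 2.99, 3.19 and 2.93 in MCs.

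Single genes of immune signalling and jasmonate synthesis, which were picked after their values were seen, were among the members. BIK1, a cytoplasmic kinase that relays signals from immune receptors, was at 9.92, 9.05 and 3.66 in BSCs, against 6.62, 8.02 and 5.51 in MCs, and ranked 25, 37 and 681. OPCL1, a ligase of jasmonate synthesis, was the steadiest nuclear named member, with ranks of 87, 90 and 72. It was at 8.58, 7.94 and 5.04 in BSCs, against 6.14, 8.92 and 7.43 in MCs. GRX480, a glutaredoxin that binds transcription factors of salicylate signalling, was at 8.48, 7.32 and 3.63 in BSCs, against 7.49, 7.99 and 7.92 in MCs. PIA1, a protein phosphatase, was at 7.82, 5.91 and 2.26 in BSCs, against 5.18, 8.46 and 4.49 in MCs. The ubiquitin ligase PUB22, a damper of immune responses, was at 7.20, 5.53 and 3.90 in BSCs, against 7.15, 8.13 and 6.64 in MCs, and its relative PUB19 was at 6.19, 6.89 and 2.86 in BSCs, against 2.99, 3.59 and 4.35 in MCs. Thus PUB22 was high in both cell types, while PUB19 reached 5 on no MC array.

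Of 30 named early stress genes, 3 were members: PUB22, STZ and CML37. STZ, a zinc finger repressor, was at 6.61, 5.29 and 3.80 in BSCs, against 4.77, 5.78 and 4.54 in MCs, and CML37, a calmodulin-like protein, at 6.48, 5.42 and 1.94 in BSCs, against 5.03, 5.66 and 5.08 in MCs. CML38, close to CML37, just missed the level on array 5, with 6.77, 4.92 and 1.98 in BSCs, against 3.68, 5.87 and 4.99 in MCs. The transcription factor WRKY6 was at 5.12, 3.76 and 4.32 in BSCs, against 5.94, 5.85 and 5.57 in MCs. The median of the 30 genes was 2.35, 2.04 and 1.97 in BSCs, against 2.03, 2.02 and 2.00 in MCs, so most of the list lay near the middle of each array. Of 7 named wound and jasmonate genes, plant defensins and thionins for the most part, none was a member, where 1.5% of all named nuclear probe sets were. The highest BSC value in the list was 2.98. That list does not hold OPCL1. DEAR2, a transcription factor of the DREB family, was at 5.04, 5.40 and 3.87 in BSCs, against 3.48, 3.38 and 3.78 in MCs.

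Some cold and dehydration genes and redox enzymes were members as well. SRC2, named for a cold-regulated gene of soybean, was at 9.35, 8.29 and 4.39 in BSCs, against 7.6, 8.77 and 7.56 in MCs. COR47, a dehydrin, was at 7.93, 7.95 and 4.03 in BSCs, against 6.64, 7.6 and 6.22 in MCs, and RD2, named for its response to desiccation, was at 8.32, 7.61 and 2.59 in BSCs, against 5.97, 7.38 and 5.97 in MCs. Arrays 3 and 5 were above all MC arrays for COR47 and RD2. In the cold and dehydration list 2 of 14 were members, and COR15B stayed at 3.77, 3.77 and 3.08 in BSCs, against 6.03, 8.0 and 3.50 in MCs. AER, an alkenal reductase that removes reactive carbonyls, was one of the steadiest, at 8.65, 8.68 and 5.83 in BSCs, against 8.22, 8.53 and 7.65 in MCs, with ranks of 81, 50 and 29. AOR, a chloroplast enzyme of related function, was at 6.55, 5.56 and 3.73 in BSCs, against 4.97, 8.54 and 6.14 in MCs. AOX1A, the alternative oxidase of mitochondria, was at 7.21, 6.17 and 5.01 in BSCs, against 7.62, 8.04 and 7.39 in MCs, with no overlap between the cell types. ATMDAR2, which regenerates ascorbate, was at 8.0, 6.13 and 3.46 in BSCs, against 5.13, 7.19 and 5.93 in MCs. The glucosyltransferases UGT73B5 and GT72B1 attach sugar to small molecules. UGT73B5 was at 7.20, 6.51 and 3.84 in BSCs, against 6.10, 6.65 and 5.54 in MCs, and GT72B1 at 6.67, 5.23 and 2.75 in BSCs, against 3.84, 4.87 and 4.88 in MCs.

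Of 12 named chaperone genes, 2 were members. Fes1A, a partner of Hsp70, was at 7.46, 5.82 and 2.94 in BSCs, against 3.52, 5.31 and 4.95 in MCs, and Hsp70-2 was at 6.88, 5.71 and 4.67 in BSCs, against 4.80, 4.93 and 4.92 in MCs. Hsp70-2 was level over the MC arrays, and arrays 3 and 5 were above them. BZIP60, a transcription factor of the unfolded protein response, was at 7.19, 5.92 and 3.67 in BSCs, against 6.06, 7.76 and 4.81 in MCs. Among genes of protein turnover and membrane traffic, APA1, a vacuolar aspartic protease, was at 8.07, 6.90 and 3.95 in BSCs, against 5.56, 8.31 and 6.36 in MCs. VPS2.1, of the machinery that sorts membrane proteins for the vacuole, was at 7.07, 6.80 and 2.61 in BSCs, against 4.85, 6.83 and 3.29 in MCs. ATG8F, which coats autophagosomes, was at 6.27, 5.42 and 3.63 in BSCs, against 3.96, 5.60 and 5.23 in MCs. UBP23, a ubiquitin-specific protease, was at 6.61, 7.53 and 3.70 in BSCs, against 5.81, 6.41 and 5.68 in MCs. None of 19 genes in the ubiquitin and proteasome list was a member, where 1.5% of all named nuclear probe sets were. That list does not hold UBP23 or the PUB genes.

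Some named genes of primary metabolism and transport were among the members. SAMDC, for polyamine synthesis, was at 7.49, 6.16 and 3.10 in BSCs, against 3.10, 6.88 and 5.61 in MCs. TPI, the cytosolic triosephosphate isomerase, was at 7.85, 6.11 and 2.93 in BSCs, against 4.99, 7.61 and 5.18 in MCs, and GME, an epimerase of ascorbate synthesis, at 6.70, 5.06 and 4.97 in BSCs, against 4.1, 6.15 and 4.75 in MCs. DIN10, a dark-inducible member of the raffinose synthase family, was at 7.06, 6.92 and 3.68 in BSCs, against 3.62, 3.27 and 3.28 in MCs. HA2, the plasma membrane proton pump also called AHA2, was at 6.54, 6.18 and 3.67 in BSCs, against 3.68, 4.43 and 3.30 in MCs, and was the only member among 5 named proton pump genes. VHA-A3, a subunit of the vacuolar proton pump, was at 5.79, 4.53 and 3.89 in BSCs, against 3.54, 4.97 and 4.06 in MCs. AT1G53210, the sodium/calcium exchanger NCL, was at 8.19, 8.04 and 3.41 in BSCs, against 5.25, 8.04 and 5.27 in MCs, and AT5G52050, the efflux carrier DTX50, at 7.89, 6.02 and 1.84 in BSCs, against 5.33, 8.30 and 5.25 in MCs. AT5G17850, which the study lists as a sodium/calcium exchanger, was at 5.73, 6.56 and 2.91 in BSCs, against 3.51, 4.74 and 2.15 in MCs. PDE318, named for a pigment-defective mutant, was at 5.87, 5.71 and 3.25 in BSCs, against 2.87, 3.46 and 2.5 in MCs. The lists of 22 named ion and metal transporters and 19 named sugar and amino acid transporters held no member. Their highest BSC values were 3.99 and 3.80. The ion and metal list does not hold AT1G53210, AT5G17850 or PDE318, the last given by the study as a ferrous iron transporter. The lists of 38 named cell wall and vesicle genes and of 9 cytoskeleton genes held no member either, with highest BSC values of 3.41 and 4.21. The cell wall and vesicle list does not hold HRGP1 or SEC5B, which were members. These lists cover only genes with a named probe set. Of all named nuclear probe sets 1.5% were members, so lists of this size can easily hold none. Nothing is read from the lists without a member.

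**Figure D4:**
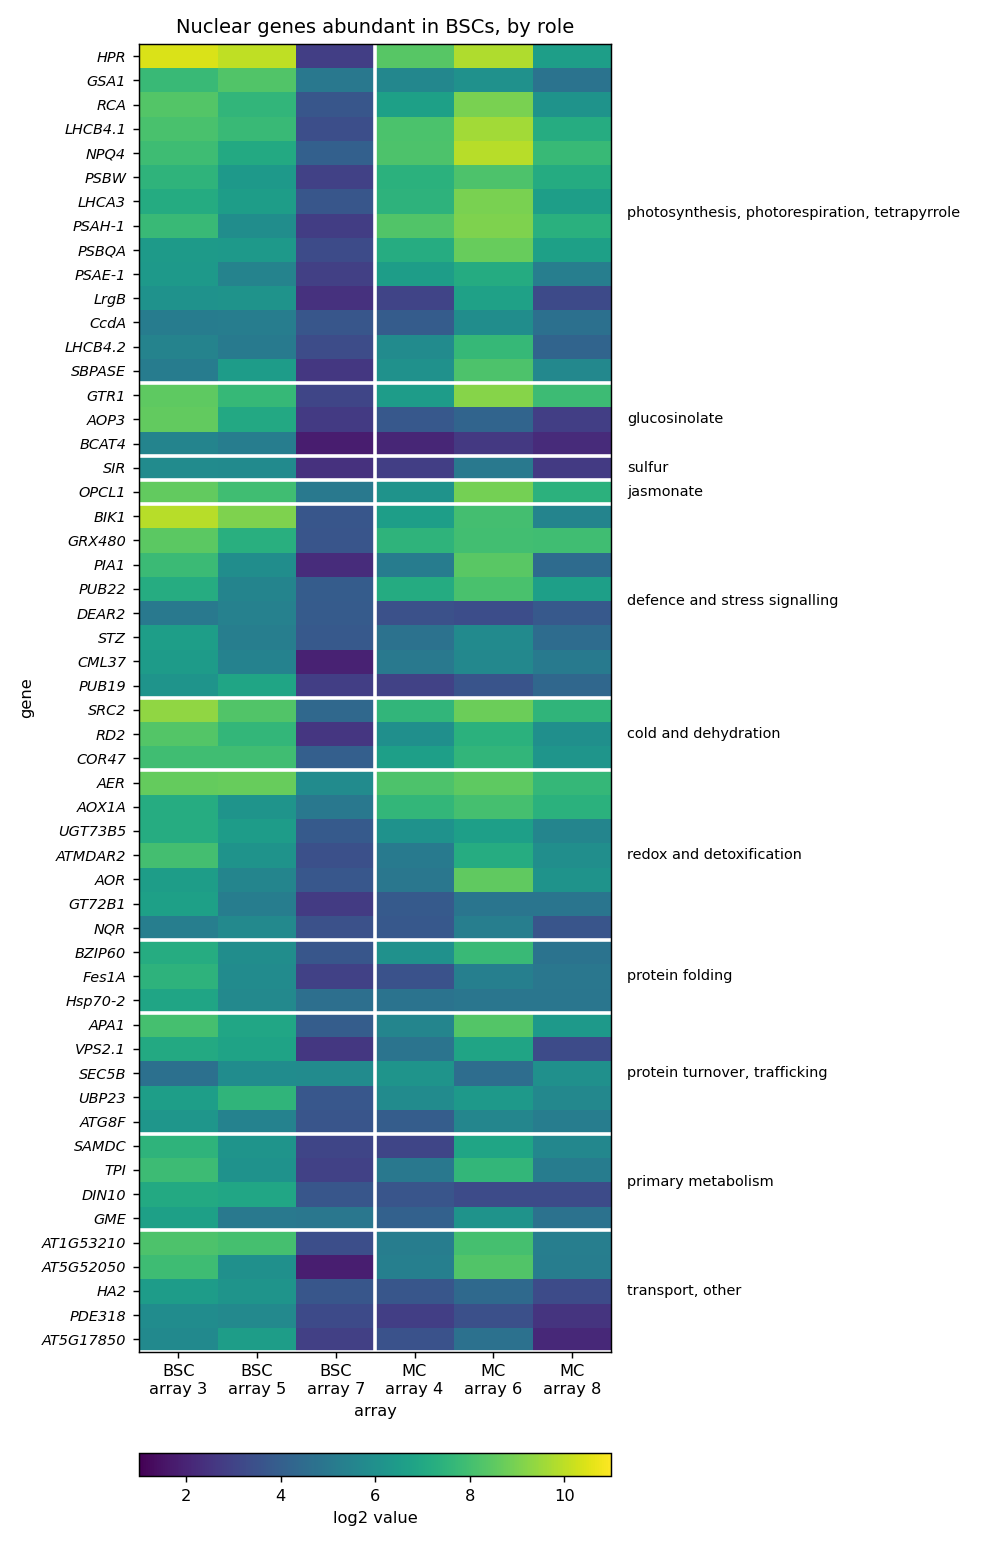
Log2 value (colour scale) of named nuclear genes abundant in BSCs on each BSC array (left of the white line) and MC array (right), grouped by role and sorted by median BSC rank within a role. The column of BSC array 7 is dark for nearly all genes, and SEC5B runs the other way with 4.71, 5.86 and 5.81 in BSCs.

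A small group of 23 members, 17 of them named, ran higher on array 7 than on array 3. Of these, 14 reached 5 on arrays 5 and 7 only and so needed array 7 to be members, and 9 reached it on all 3 arrays. The median of the 23 was 4.71, 5.38 and 5.96 in BSCs, against 5.60, 4.70 and 5.74 in MCs, and 18 of them had array 5 between arrays 3 and 7. MC array 6 was the lowest MC array for 21 of the 23, compared with 23 of the 536 other members. The other members instead had MC array 6 as the highest MC array in 470 cases. By median, BSC array 3 and MC array 6 were lowest and BSC array 7 highest for these 23 members. The same held for the spike-in controls given above, while the order of the other 3 arrays differed. The choice of the 23 itself put array 7 above array 3, so nothing is read from that part of the order. The part of the arrays' overall difference in these members was not tested. AT5G59170 was the clearest case, at 4.61, 6.18 and 8.16 in BSCs, against 6.39, 4.70 and 6.57 in MCs, and held rank 2 on array 7 but 1388 on array 3. HRGP1, a hydroxyproline-rich glycoprotein of the cell wall, was at 3.47, 5.27 and 5.93 in BSCs, against 5.30, 4.29 and 6.09 in MCs. SEC5B, a subunit of the exocyst that tethers secretory vesicles, was at 4.71, 5.86 and 5.81 in BSCs, against 6.19, 4.57 and 6.02 in MCs. SHN3, a transcription factor of cuticle formation, was at 5.15, 5.22 and 5.44 in BSCs, against 5.45, 4.84 and 5.58 in MCs. All 5 members whose probe set type (x) marks probes that can bind unrelated or only similar transcripts were in this group, among them HRGP1, AT4G08410, AT1G23720 and AT5G06630, and the 536 other members held none. Of all probe sets 0.55% are of that type.

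**Figure D5:**
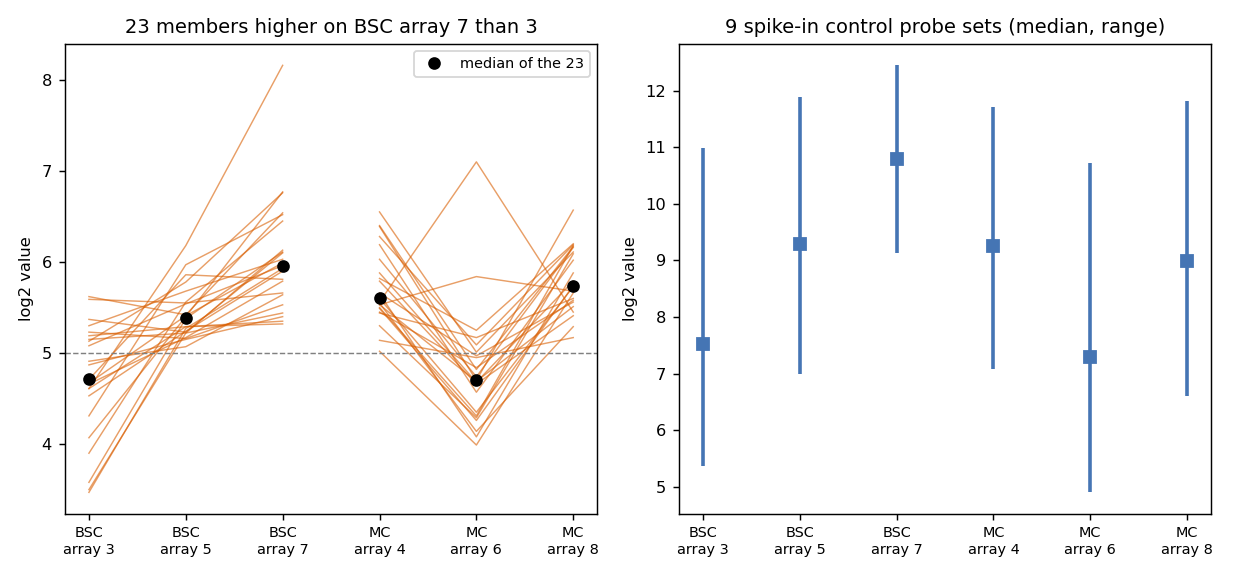
Left, log2 values (vertical axis) of the 23 members that were higher on BSC array 7 than on BSC array 3, each a line within a cell type, with their median as black points (4.71, 5.38 and 5.96 in BSCs, against 5.60, 4.70 and 5.74 in MCs) and the level of 5 dashed. Right, median (square) and range (line) of the 9 spike-in control probe sets on the same arrays. In both panels the lowest medians are on BSC array 3 and MC array 6 and the highest on BSC array 7. For the 23 members, array 7 lies above array 3 by choice.

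Most transcripts abundant in BSCs were abundant in MCs too. Of the 559 members, 262 (46.9%) reached 5 on all 3 MC arrays, 109 on 2, 143 on 1 and 45 (8.1%) on none. The BSC set and the 481 probe sets chosen by the same rule on the MC arrays shared 371, which was 66.4% of the BSC set and 77.1% of the MC set. On all 6 arrays, 37 probe sets reached 5, 24 of them named and 10 of those chloroplast-encoded. Without BSC array 3 or 5 the BSC set fell to 59 and 48 probe sets, of which 96.6% and 95.8% were in the MC set. The mean over the BSC arrays was above the mean over the MC arrays for 223 members, with a median difference of -0.24 on the log2 scale. Without BSC array 7 it was above for 449 members, with a median difference of 0.83. Since high BSC values chose the members, the second count is a property of the choice. All BSC arrays lay above all MC arrays for 3 members, DIN10, DEAR2 and AT1G75510, where 3.14% of all probe sets did so. The reverse held for 9 members, including PSBQA, AOX1A, rps19 and AT5G20050, where 2.85% of all probe sets did so. The rule used the BSC values of this contrast, so nothing is read from these counts.

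Of the 45 members below 5 on every MC array, 19 were named. Those with the lowest MC values were BCAT4, AT5G16880, AT4G34450, PDE318, DIN10, AT1G19210, DEAR2 and AT1G75510. AT5G16880 was at 6.40, 6.21 and 2.28 in BSCs, against 2.48, 3.06 and 2.31 in MCs, and AT4G34450 at 5.34, 5.29 and 1.94 in BSCs, against 2.26, 3.25 and 2.33 in MCs. AT1G19210 was at 5.93, 5.02 and 3.57 in BSCs, against 3.28, 3.40 and 3.66 in MCs, and AT1G75510 at 5.16, 5.01 and 4.59 in BSCs, against 3.80, 3.41 and 3.48 in MCs. In the first pair array 7 lay below every MC array, and in AT1G75510 it lay above them. Of the named members, AT2G24550, AT3G02360 and AT2G16900 had the widest ranges of rank, while some unnamed members had wider ones (up to 22542 places). AT2G24550 ranked 160 and 25 on arrays 3 and 5 and 21375 on array 7, at 7.99, 9.39 and 1.57 in BSCs, against 5.14, 7.36 and 1.93 in MCs. AT3G02360 was at 7.83, 7.16 and 1.64 in BSCs, against 6.19, 6.69 and 6.26 in MCs. AT2G16900 was at 7.43, 6.58 and 1.69 in BSCs, against 5.16, 6.96 and 4.85 in MCs. AT5G64400, petL and AT2G43640 had the next widest ranges of the named members. AT5G64400 was at 6.31, 5.36 and 1.69 in BSCs, against 4.92, 5.83 and 5.72 in MCs. AT2G43640 was at 7.15, 6.72 and 1.80 in BSCs, against 4.79, 5.63 and 1.97 in MCs.

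Chromosome and gene span set the named nuclear members little apart from all named nuclear probe sets. Function set some apart: 3 of 4 nuclear photosystem I genes and 5 of 11 nuclear photosystem II genes were members, compared with 1.50% of named nuclear probe sets. The share of named probe sets that were members was 1.47% on chromosome 1, 1.0% on chromosome 2, 1.67% on chromosome 3, 1.57% on chromosome 4 and 1.69% on chromosome 5. The gene span, introns included, had a median of 2243 bases (middle 50%, 1656 to 2820) in the 201 nuclear named members and 2123 bases (1416 to 3075) in all 13413 nuclear named probe sets. Among 5855 pairs of neighbouring nuclear genes with names, 2 pairs were members on both sides, AT3G55430 with TPI and AT5G16960 with AER. Probe sets that read several transcripts of 1 family (type s) made up 6.80% of the members and 4.11% of all probe sets. Of the study's 90 differential probe sets, 15 were members, 13 of them named, where 2.46% of all probe sets were members. The study drew that list from these same arrays, so nothing is read from this count. AT5G47210, one of these, was at 5.52, 5.27 and 4.73 in BSCs, against 6.14, 6.54 and 5.07 in MCs.

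The level of 5 cut through a dense range of values. The second highest BSC value lay between 4.5 and 5 for 195 probe sets and between 5 and 5.5 for 141. Just inside were AT4G26910 (second value 5.007), AT1G75510 (5.013), AT1G15430 (5.017), AT5G12120 (5.018) and AT1G22410 (5.019). Just outside were AT1G70590 (4.999), AT5G58330 (4.998), AT5G39785 (4.995), AT1G19200 (4.968) and AT3G52800 (4.941). AT1G22410, on the inside, had 7.34, 5.02 and 2.92 in BSCs, and AT3G52800, on the outside, had 5.90, 4.94 and 3.64. In either gene the BSC arrays lay farther apart than the second values on both sides of the level.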

How the data were processed

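Amplified RNA of 3 BSC and 3 MC pools was read on 1 ATH1 array each. The authors ran RMA in Partek (6.6 in the submitters' processing notes, while the methods give another version) and deposited 1 log2 value per probe set and array, which was used unchanged. RMA is meant to give arrays like distributions, but the deposited ones differ, so a fixed level admits different numbers per array. Depth has no count on arrays, and 3 arrays per cell type limit the precision.

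After 64 control probe sets were set aside, members were taken at 5 or above on 2 of the 3 BSC arrays and ranked within each array. Probe sets were named by the array annotation through gene numbers to TAIR10.1 (13436) or by the gene code in the study's list of differential probe sets (46). No differential test was run. Named in the text were the 15 named members of smallest median rank, those at 5 on all 3 arrays (at most 20), up to 4 per list of 29 function lists, the 6 steadiest and 6 least steady, 5 on either side of the level, 8 lowest on MCs and members in that list of the study. Further genes with a known role were chosen after their values were seen, as were corrections of list entries. Members and lists were chosen with earlier results of these data known. Alternatives were other levels, array rules, scalings, 1 probe set a gene and each BSC array left out. Python 3.11.15, pandas 2.3.3, scipy 1.17.1 and matplotlib 3.10.9 were used, and the selection was tested on simulated data.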

Additional observations from a re-analysis of the deposited data

How the results depend on the processing

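The choice of members rests on BSC arrays 3 and 5. With 1 array left out and both others at the level, 48 to 542 probe sets remained, the 542 without array 7. The share in the MC set was then 65.3% to 96.6%, and the share of named members encoded in the chloroplast (15.2% as reported) was 15.9% to 31.2%. At a level of 6 there were 309 members, 23% of the named ones from the chloroplast. At 4.5 the share in the MC set was 73.2%. Members on all 3 arrays numbered 109 at a level of 4.5, 21 at 5.5 and 11 at 6. With all 3 arrays required, 45 members remained, with 82.2% in the MC set and 32.3% from the chloroplast. With the mean of the 3 arrays as the rule, 81.4% were in the MC set. After quantile normalization over the 6 arrays there were 523 members, 490 of them shared with the 559, members on all 3 arrays numbered 134, and 77.1% were in the MC set. Within the 500 highest probe sets of an array there were 420 members, 403 of them shared, members on all 3 arrays numbered 105, and 75.2% were in the MC set. Rank correlations moved by less than their spread over the 3 pairs under every alternative. That spread is wide, and rho for arrays 3 and 7 ran on both sides of 0. The cause of these changes was not tested. No paired analysis was possible because the arrays of the cell types share no numbers and no test was made.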
